A study of Mus musculus with 4 samples.

Results

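The genes followed here encode the isoforms of 4 glycolytic enzymes in mouse ingWAT, the inguinal white fat depot under the skin. They are *Hk1*, *Hk2* and *Hk3* (hexokinase), *Pfkl*, *Pfkm* and *Pfkp* (phosphofructokinase), *Pgam1* and *Pgam2* (phosphoglycerate mutase), and *Eno1* and *Eno3* (enolase), 10 of the 19030 genes of the expression table, found by their symbols. They were chosen with their levels in the 2 genotypes in view, because the muscle isoforms *Pfkm*, *Eno3* and *Pgam2* went one way between genotypes and most of the others went the other. Their genotype differences are therefore given as a description, and where calls of the fit over all genes are counted for them, nothing is read from the count.

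RNA sequencing compared Ctrl mice, which carry loxP-flanked *Oct3* alleles (Oct3 fl/fl), with cKO mice, which carry the same alleles and an Adiponectin-Cre transgene. Per the labels, both groups were C57BL/6 mice of 3 months kept at 4°C. The methods of the study describe a cold challenge of male mice over several weeks that began at a milder temperature, while a legend gives a single temperature, so the exact schedule behind these libraries is uncertain. There were 2 libraries of each genotype, named here Ctrl 1, Ctrl 2, cKO 1 and cKO 2, and nothing in the labels says how many animals each library holds. Adiponectin-Cre acts in adipocytes, so *Oct3* stays intact in the other cells of the depot. The loxP sites flank part of *Oct3* only, so reads from the rest of the gene can remain. Expression is in FPKM, a fragment count scaled for transcript length and sequencing depth, which allows levels to be compared between genes of different length.

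Glycolysis splits glucose into pyruvate. Hexokinase phosphorylates glucose and traps it in the cell, phosphofructokinase commits the sugar to breakdown, and phosphoglycerate mutase and enolase act near the end of the chain, before pyruvate kinase. Each enzyme is made from several genes whose protein products do the same reaction in different tissues. Skeletal muscle fibres use *Pfkm*, *Pgam2* and *Eno3*, while *Pfkl*, *Pfkp*, *Pgam1* and *Eno1* are used widely, *Pfkl* most in liver. *Hk2* is the hexokinase of insulin-responsive tissues such as muscle and fat, *Hk1* is found in most tissues, and *Hk3* is best known from myeloid cells. Cold-exposed fat takes up much glucose for heat production. In GRCm38.p6 the muscle isoform genes lie at chr15:98092589-98132447 (*Pfkm*), chr11:5801637-5803796 (*Pgam2*) and chr11:70653125-70662513 (*Eno3*), and their partners *Pfkl*, *Pgam1* and *Eno1* lie on chromosomes 10, 19 and 4.

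*Slc22a3*, the gene of Oct3, was measured at 17.0 and 17.7 FPKM in Ctrl and at 9.07 and 9.50 in cKO, a log2 fold change of -0.83 ± 0.0660 (SE, limma adjusted p = 0.000439). The depth was estimated from the table at 17400000 to 18150000 reads per library. The 2 Ctrl libraries stood apart from the cKO libraries in transcripts of skeletal muscle. Over 22 muscle marker genes, FPKM summed to 2868 in Ctrl 1, 1956 in Ctrl 2, 52.4 in cKO 1 and 51.2 in cKO 2. Of the 16 with enough signal to test, 15 were lower in cKO and 0 higher by an adjusted p under 0.05 (limma), and the remaining 1, *Tnnc1*, was not called. By the same rule, 13.8% of all 12658 genes tested were lower in cKO and 12% higher. None of the 7 defining markers was at 0 in any library. *Myh4*, the myosin heavy chain of the fastest fibres, was at 118 and 82.2 FPKM in Ctrl and at 0.34 and 0.14 in cKO (adjusted p = 3.58e-06). Markers of brown or beige adipocytes went the other way, with 7 of 7 higher in cKO and sums of 1516 and 1792 against 4778 and 4038 FPKM. In whole tissue, fewer cells of a type and less RNA per cell cannot be told apart.

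The muscle isoform of phosphoglycerate mutase shows the widest gap between genotypes among the 10 genes, and the muscle enolase comes next. The promoters of both are printed here with that of *Pgam1*, the widely used partner, because the E-box discussed next is in the first 2 and not in the third. Each is the RefSeq window from 250 bases before to 50 after the start of transcription in GRCm38.p6, given 5′ to 3′ on the strand of the gene, and capitals mark the E-box CAGCTG, a site of the kind that muscle regulatory factors bind, and in *Pgam2* also a MEF2 motif of the broad form. *Pgam2* lies at chr11:5803747-5804046 on the minus strand, *Eno3* at chr11:70656926-70657225 on the plus strand and *Pgam1* at chr19:41911621-41911920 on the plus strand.
Pgam2: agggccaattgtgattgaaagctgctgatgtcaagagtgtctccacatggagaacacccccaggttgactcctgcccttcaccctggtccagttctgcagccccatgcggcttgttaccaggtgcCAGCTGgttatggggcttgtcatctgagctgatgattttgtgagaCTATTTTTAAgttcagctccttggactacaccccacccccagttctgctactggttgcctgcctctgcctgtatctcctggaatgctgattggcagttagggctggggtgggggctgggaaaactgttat
Eno3: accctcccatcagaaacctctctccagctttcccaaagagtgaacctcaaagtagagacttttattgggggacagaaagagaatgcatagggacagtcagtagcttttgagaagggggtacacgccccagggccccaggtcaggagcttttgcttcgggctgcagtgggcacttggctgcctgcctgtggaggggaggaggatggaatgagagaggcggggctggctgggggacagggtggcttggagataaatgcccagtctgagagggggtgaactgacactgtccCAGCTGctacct
Pgam1: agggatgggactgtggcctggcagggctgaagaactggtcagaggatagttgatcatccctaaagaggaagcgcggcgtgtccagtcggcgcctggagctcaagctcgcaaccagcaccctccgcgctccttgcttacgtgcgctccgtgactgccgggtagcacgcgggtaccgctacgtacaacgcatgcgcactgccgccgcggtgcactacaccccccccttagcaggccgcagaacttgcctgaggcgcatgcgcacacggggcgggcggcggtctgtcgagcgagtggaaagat
The E-box begins at position -125 from the start of transcription in *Pgam2* and at position 39 in *Eno3*, and CAGCTG reads the same on both strands. It was found in 2 of the 16 windows that RefSeq gives for the 10 genes, against 16.3% of 32851 windows of all genes. None of the 4 windows of *Pfkm* holds it. The MEF2 motif was searched on both strands in a strict form, with C as the first and G as the last base, and, chosen after seeing the data, in a broad form with C or T first and A or G last. The strict form was in 0 of the 16 windows and in 0.557% of all windows. The broad form was in 1 of the 16, at position -80 of *Pgam2*, and in 3.19% of all windows. TGACG, the core of a cAMP response element, was in 1 window, that of *Hk2*, and in 20.8% of all windows. These matches describe the letters only.

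*Hk1* and *Hk2*, the enzymes that open the pathway, were both higher in cKO, and by nearly the same factor. *Hk2* was at 46.8 and 50.7 FPKM in Ctrl and at 80.2 and 71.7 in cKO, which is 1.56-fold higher and a log2 fold change of 0.63 ± 0.0737 (SE). *Hk1* was at 10.4 and 11.2 FPKM in Ctrl and at 18.01 and 16.2 in cKO, 1.58-fold higher. In both genes each cKO library lay above each Ctrl library, which was so for 31.9% of all 12658 genes tested. *Hk3* was at 3.03 and 2.06 FPKM in Ctrl and at 3.74 and 2.85 in cKO, and here the genotypes overlapped. *Hk3* rests on an estimated 117 to 207 reads per library, the least of the hexokinases. Of 11 myeloid markers tested, 6 were higher in cKO and 1, *Csf1r*, was lower, against 12% higher and 13.8% lower over all genes. Their sums were 854 and 763 FPKM in Ctrl and 921 and 950 in cKO, and their part in the *Hk3* values was not tested.

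The make-up of the hexokinase family hardly differed between genotypes. *Hk2* gave 77.7% and 79.2% of the summed FPKM of the 3 genes in Ctrl and 78.7% and 79.0% in cKO, so the Ctrl libraries lie on both sides of the cKO libraries. The log2 ratio of *Hk2* to *Hk1* was 2.17 and 2.18 in Ctrl and 2.15 in both cKO libraries. The sum itself was 1.55-fold higher in cKO.

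Phosphofructokinase showed opposite differences within one family. *Pfkl*, the liver-type subunit, was at 98.2 and 116 FPKM in Ctrl and at 278 and 230 in cKO, 2.37-fold higher, with a log2 fold change of 1.24 ± 0.111 (SE). *Pfkp*, the platelet-type subunit, was at 31.4 and 32.7 FPKM in Ctrl and at 45.1 and 40.5 in cKO, 1.33-fold higher. *Pfkm*, the muscle-type subunit, was at 36.1 and 31.9 FPKM in Ctrl and at 22.0 and 21.4 in cKO, which is 1.57-fold higher in Ctrl and a log2 fold change of -0.62 ± 0.0734. By real-time PCR of ingWAT after cold, the paper reports *Pfkm* as up-regulated in cKO, along with *Pfkl*, *Hk2* and *Eno1*. The paper also states that its RNA-seq found glycolytic genes at higher levels in cKO ingWAT after cold, without naming *Pfkm* there. For *Pfkm* the FPKM values used here differ in direction from the PCR and from that general statement. The reason was not tested. The genotypes overlapped in none of the 3 genes, and neither did they in 66.5% of all 12658 genes tested. *Pfkl* was the main isoform in every library, and the order of the other two depended on genotype. In Ctrl, *Pfkm* and *Pfkp* did not differ beyond their spread, with *Pfkm* above in Ctrl 1 and below in Ctrl 2. In cKO, *Pfkp* was 2.05 and 1.89 times as high as *Pfkm*. The share of *Pfkm* was 21.8% and 17.6% in Ctrl and 6.38% and 7.32% in cKO, while that of *Pfkl* was 59.3% and 64.3% in Ctrl and 80.6% and 78.8% in cKO. The share of *Pfkp* was lower in cKO, at 13.0% and 13.9% against 18.9% and 18.1%, although its level was higher, because *Pfkl* differed more. The family sum was 1.84-fold higher in cKO.

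**Figure D1:**
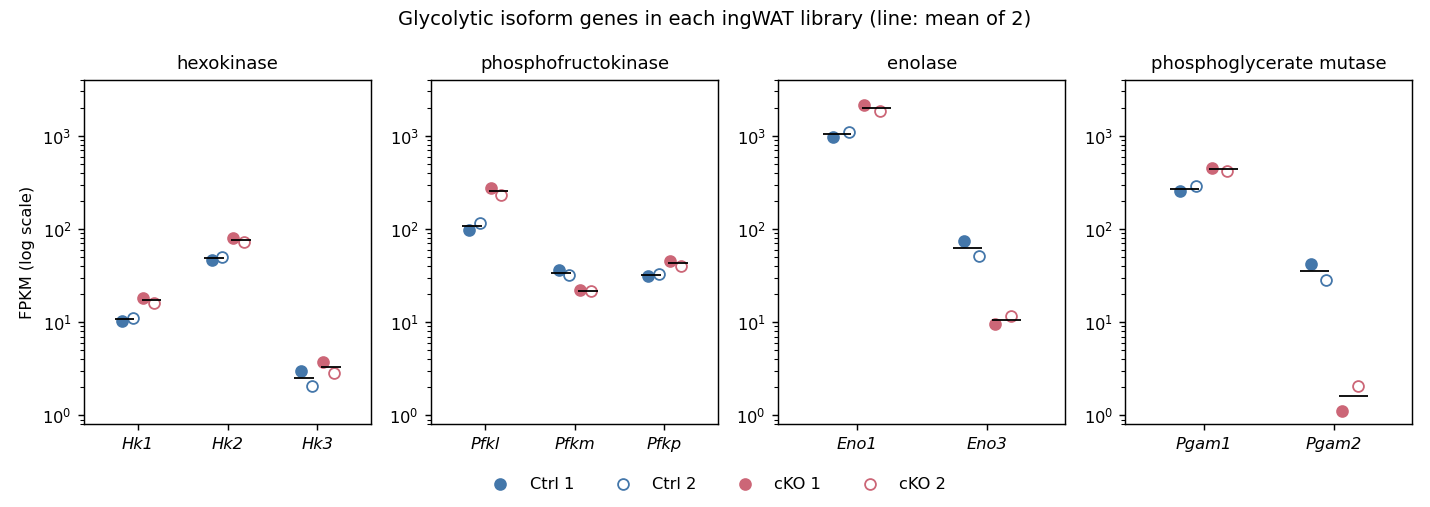
FPKM on a log axis for each of the 10 genes, by enzyme, in Ctrl 1 and Ctrl 2 (blue) and cKO 1 and cKO 2 (red), with filled symbols for library 1, open symbols for library 2 and a line at the mean of each genotype. *Pgam2* and *Eno3* drop in the cKO libraries by far more than *Pfkm*, while *Hk3* is the gene in which the genotypes overlap.

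Phosphoglycerate mutase moves the phosphate group of 3-phosphoglycerate to the neighbouring carbon. *Pgam2* was at 42.3 and 28.7 FPKM in Ctrl and at 1.12 and 2.09 in cKO. That is 22.1-fold higher in Ctrl and a log2 fold change of -3.81 ± 0.215 (SE) after 1 was added to each FPKM value, so that the fold of a gene at so low a level is understated. The cKO values rest on an estimated 16 and 29 reads, so the cKO level is known only roughly. *Pgam1* was at 253 and 288 FPKM in Ctrl and at 457 and 415 in cKO, 1.61-fold higher, a log2 fold change of 0.69 ± 0.0847. *Pgam1* exceeded *Pgam2* by factors of 6.00 and 10.1 in Ctrl and of 408 and 199 in cKO. *Pgam2* thus held 14.3% and 9.05% of the family in Ctrl and 0.245% and 0.501% in cKO. The sum of both genes was 1.43-fold higher in cKO, the smallest family difference of the 4.

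Enolase makes phosphoenolpyruvate, the substrate of pyruvate kinase. *Eno3*, the muscle isoform, was at 74.8 and 51.7 FPKM in Ctrl and at 9.52 and 11.6 in cKO, 6.00-fold higher in Ctrl, with a log2 fold change of -2.46 ± 0.165 (SE). *Eno1*, found in most tissues, was at 972 and 1100 FPKM in Ctrl and at 2157 and 1845 in cKO, 1.93-fold higher, with a log2 fold change of 0.95 ± 0.108. *Eno1* was the highest of the 10 genes in every library. It exceeded *Eno3* by factors of 13.0 and 21.3 in Ctrl and of 227 and 160 in cKO. The share of *Eno3* was 7.15% and 4.49% in Ctrl and 0.439% and 0.623% in cKO. *Eno2*, the neuronal isoform, was at 1.95 and 1.97 FPKM in Ctrl and at 1.92 and 2.21 in cKO (log2 fold change 0.05 ± 0.107, adjusted p = 0.772).

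**Figure D2:**
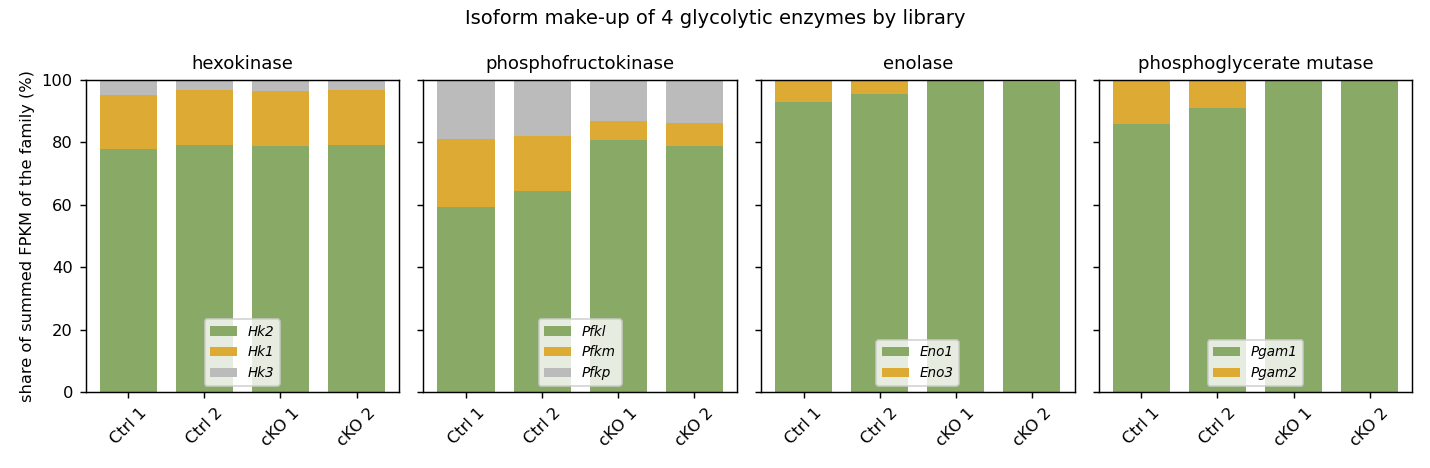
Share of each isoform in the summed FPKM of its enzyme family, in percent from 0 to 100, for each of the 4 libraries. The hexokinase bars look alike in all libraries, and the muscle isoforms *Pfkm*, *Eno3* and *Pgam2* take a smaller share in both cKO libraries than in both Ctrl libraries.

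Across the 10 genes, 6 were called higher and 3 lower in cKO, and 1, *Hk3*, was not called. Without Ctrl 1, *Eno1* and *Pfkp* were not called either, which left 4 higher. Among all 12658 genes tested, 12% were called higher and 13.8% lower, 25.8% in all. The median log2 fold change of the 10 was 0.51, against -0.01 over all genes tested. The genotypes did not overlap in 9 of the 10, with cKO above in 6 and below in 3. Of all genes tested, 66.5% did not overlap, 31.9% with cKO above and 34.6% with cKO below. Because the genes were chosen on this contrast, nothing is read from these counts. In Ctrl the levels ran in the order *Eno1*, *Pgam1*, *Pfkl*, *Eno3*, *Hk2*, *Pgam2*, *Pfkm*, *Pfkp*, *Hk1* and *Hk3*, and the values of *Pgam2*, *Pfkm* and *Pfkp* overlapped. In cKO the order was *Eno1*, *Pgam1*, *Pfkl*, *Hk2*, *Pfkp*, *Pfkm*, *Hk1*, *Eno3*, *Hk3* and *Pgam2*, and no neighbours overlapped. *Eno3* passed from above to below *Hk1*, and *Pgam2* from above *Hk1* to the last place.

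The 2 libraries of a genotype also differed from each other. In Ctrl 1 relative to Ctrl 2, *Pgam2* was 1.47-fold, *Eno3* 1.45-fold and *Pfkm* 1.13-fold as high. The 15 muscle markers that were lower in cKO ranged from 1.32-fold to 1.58-fold in the same comparison, with a median of 1.46. *Pgam2* and *Eno3* lay inside that range and *Pfkm* below it. These 15 were picked by their genotype call, so the range is a description only. *Tnnc1*, tested but not called, had a ratio of 0.414, from 0.89 and 2.15 FPKM. Over 12575 genes the middle 90% ran from 0.839 to 1.22. The widely used isoforms were lower in Ctrl 1 than in Ctrl 2, with ratios of 0.845 for *Pfkl*, 0.879 for *Pgam1*, 0.884 for *Eno1*, 0.926 for *Hk1*, 0.925 for *Hk2* and 0.960 for *Pfkp*. The 7 brown or beige markers had ratios of 0.625 to 0.962 there. *Hk3*, at 1.47, was the exception among the genes other than the muscle isoforms. In cKO 1 relative to cKO 2, *Pfkl* was 1.21-fold and *Eno1* 1.17-fold as high, and the brown or beige markers ranged from 1.05-fold to 1.21-fold. In this comparison the middle 90% of the 12575 genes ran from 0.771 to 1.17, with a median of 0.966. *Pgam2* and *Eno3*, at 0.536 and 0.824, were lower in cKO 1, where the 15 muscle markers spread from 0.727 to 4.30 and all but *Myl1* were at or below 2.84 FPKM.

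**Figure D3:**
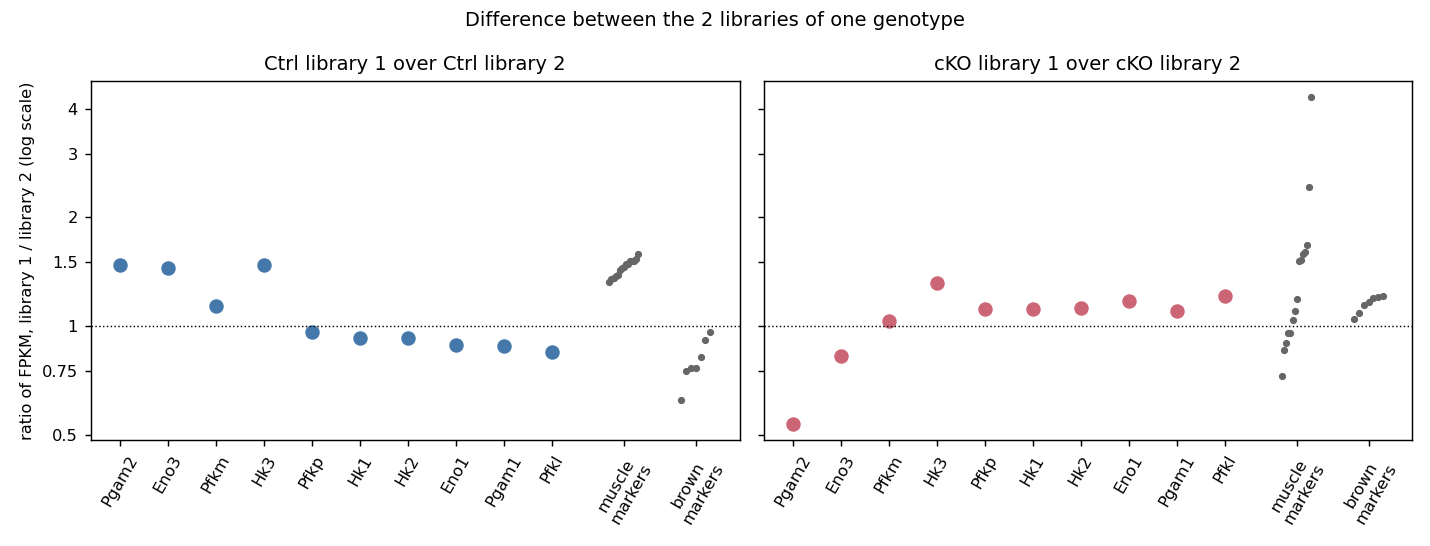
Ratio of FPKM in library 1 to FPKM in library 2 of one genotype (log axis, dotted line at 1), for the 10 genes (large points), the 15 muscle markers lower in cKO and the 7 brown or beige markers (small points), with Ctrl on the left and cKO on the right. In Ctrl, *Pgam2* at 1.47 and *Eno3* at 1.45 sit among the muscle markers, and *Pfkl* at 0.845 sits among the brown or beige markers.

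The 3 muscle isoforms did not keep a fixed ratio to muscle creatine kinase (*Ckm*), which buffers ATP in contracting fibres and was at 333 and 210 FPKM in Ctrl and at 0.56 and 0.35 in cKO (log2 fold change -7.51 ± 0.193, adjusted p = 3.58e-06). Both cKO values are under the 1 added to each FPKM value, so this log2 fold change is understated. With 0.1 added it was -8.92. The ratio of *Pgam2* to *Ckm* was 0.127 and 0.136 in Ctrl and 2 and 5.97 in cKO. For *Eno3* it was 0.225 and 0.246 in Ctrl and 17.0 and 33.0 in cKO. For *Pfkm* it was 0.109 and 0.152 in Ctrl and 39.3 and 61.1 in cKO. Within Ctrl the ratio thus hardly moved for *Pgam2* and *Eno3* and moved more for *Pfkm*, and in cKO some transcript of each was present where *Ckm* was near 0. These ratios depend on the marker chosen. *Ckm* had the lowest log2 fold change of the 15 muscle markers lower in cKO, which ran from -7.51 to -1.05. *Acta1*, another marker, was 246-fold higher in Ctrl. *Myl1*, from the same list, was at 320 and 241 FPKM in Ctrl and at 37.8 and 39.5 in cKO. That is 7.26-fold higher in Ctrl, against 6.00-fold for *Eno3* and 22.1-fold for *Pgam2*. In order of the size of the genotype difference, the muscle isoforms ran *Pgam2*, *Eno3*, *Pfkm*. The part of muscle RNA in the values of the 3 isoforms was not tested, and in these samples it cannot be told apart from genotype.

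Other enzymes that muscle fibres make in quantity were lower in cKO, 6 of 6 by an adjusted p under 0.05. The share over all 12658 genes tested was 13.8%. *Pygm*, the muscle glycogen phosphorylase, had a log2 fold change of -4.40. *Cox6a2*, the muscle and heart form of a cytochrome oxidase subunit, had -2.94. *Ampd1*, the muscle AMP deaminase, was at 5.18 and 4.81 FPKM in Ctrl and at 0.12 and 0.05 in cKO, and its log2 fold change of -2.47 was set by the pseudocount of 1, being -4.81 with a pseudocount of 0.1. *Phkg1* and *Phka1*, the muscle subunits of phosphorylase kinase, had -1.20 and -0.49. In FPKM, *Ampd1* was 58.8-fold, *Pygm* 37.1-fold and *Cox6a2* 13.4-fold higher in Ctrl, against 22.1-fold for *Pgam2*, 6.00-fold for *Eno3* and 1.57-fold for *Pfkm*. *Phka1* was no longer called without Ctrl 1 (log2 fold change -0.40, adjusted p = 0.120), without cKO 2 (-0.47, adjusted p = 0.0503) or with no filter on low values (adjusted p = 0.0609).

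The rest of the pathway was followed with a list of 24 other glycolysis genes. Of these, 22 were listed and 16 had enough signal to test, of which 8 were higher and 3 lower in cKO by an adjusted p under 0.05 (limma), with a median log2 fold change of 0.23. Glucose phosphate isomerase (*Gpi1*), the step between hexokinase and phosphofructokinase, was at 216 and 242 FPKM in Ctrl and at 474 and 411 in cKO (log2 fold change 0.95 ± 0.0910, adjusted p = 0.000821). *Aldoa*, the aldolase of muscle and most other tissues, was at 2178 and 2288 FPKM in Ctrl and at 3687 and 3111 in cKO (0.60 ± 0.111, adjusted p = 0.00850). *Pkm*, the pyruvate kinase of tissues other than liver and red cells, was at 516 and 585 FPKM in Ctrl and at 1204 and 985 in cKO (0.99 ± 0.113, adjusted p = 0.00142). Thus *Aldoa* and *Pkm*, which fibres also use, were higher in cKO, unlike *Pgam2* and *Eno3*. *Gapdh* (0.57), *Pgk1* (0.70) and *Tigar* (0.35), a fructose-2,6-bisphosphatase, were also called higher, each value being a log2 fold change. *Tpi1*, the triose phosphate isomerase, was not called (0.06 ± 0.0623, adjusted p = 0.551).

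Lactate dehydrogenase also has a pair of isoforms. *Ldhb*, the heart form, was at 95.6 and 122 FPKM in Ctrl and at 261 and 217 in cKO (log2 fold change 1.13 ± 0.128, adjusted p = 0.00139). *Ldha*, the muscle form, was at 823 and 841 FPKM in Ctrl and at 932 and 867 in cKO (0.11 ± 0.0741, adjusted p = 0.312). *Fbp2*, the muscle form of fructose-1,6-bisphosphatase, which runs the phosphofructokinase step backwards, was at 3.74 and 4.43 FPKM in Ctrl and at 10.2 and 8.40 in cKO (1.02 ± 0.113, adjusted p = 0.00131). Its direction was opposite to that of *Pfkm*, *Pgam2* and *Eno3*. Of the 4 genes for the bifunctional enzymes that set the phosphofructokinase activator fructose-2,6-bisphosphate, *Pfkfb1* (-0.45, adjusted p = 0.00220) and *Pfkfb4* (-0.51, adjusted p = 0.00493) were lower in cKO. *Pfkfb3*, the highest of the 4 at 124 and 123 FPKM in Ctrl and 121 and 120 in cKO, was not called (-0.04 ± 0.0535, adjusted p = 0.666), nor was *Pfkfb2* (-0.17 ± 0.0849, adjusted p = 0.178). *Bpgm*, a mutase that makes 2,3-bisphosphoglycerate, was lower (-0.21, adjusted p = 0.0444). Several of these calls were lost when Ctrl 1 or Ctrl 2 was left out, which leaves 1 Ctrl library and fewer libraries to estimate the spread. The log2 fold changes moved little. Without Ctrl 1 and without Ctrl 2, *Aldoa* was at 0.57 and 0.64, against 0.60 with all libraries. *Gapdh* was at 0.53 and 0.61, against 0.57. Without Ctrl 1 the list had 4 genes higher and 1 lower, and without Ctrl 2 it had 5 higher and 1 lower, with *Aldoa*, *Gapdh*, *Tigar*, *Pfkfb4* and *Bpgm* lost both times and *Pkm* lost without Ctrl 1 (adjusted p = 0.0506). *Tigar* was also lost without cKO 1, and *Bpgm* without either cKO library. With no filter on low values, *Aldoa* (adjusted p = 0.0935), *Gapdh* (adjusted p = 0.0846) and *Bpgm* (adjusted p = 0.0632) were not called.

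**Figure D4:**
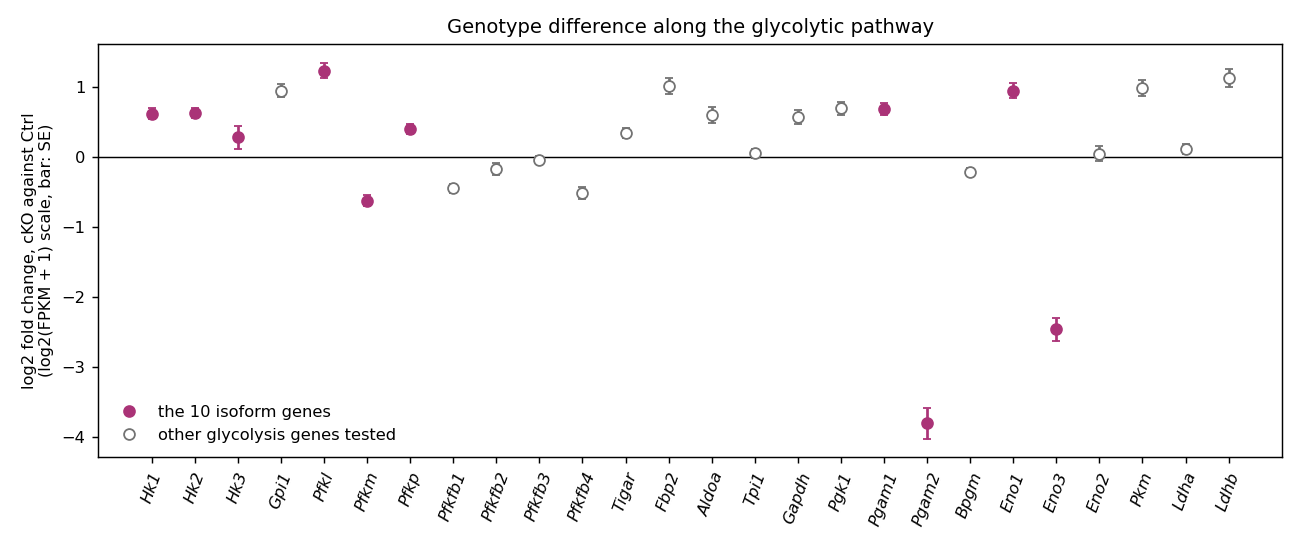
Log2 fold change between genotypes (cKO relative to Ctrl, log2(FPKM + 1) values), with its SE as a bar, for the 10 isoform genes (filled) and the 16 other glycolysis genes tested (open), in the order of the pathway. *Pgam2* at -3.81 and *Eno3* at -2.46 lie far below the other 24 genes, and *Pfkl* at 1.24 is the highest point.

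For each isoform gene, the 3 other genes with the most similar profile were found by the distance between log2(FPKM + 1) values centred on their mean over the 4 libraries, among all genes tested. With 4 libraries such likeness mostly repeats the genotype difference. The genes nearest to *Pgam2* were *Mybpc2*, *Tcap* and *Eef1a2*, at distances of 0.503 to 0.635. *Mybpc2* encodes the fast form of myosin-binding protein C and was at 24.7 and 17.98 FPKM in Ctrl and at 0.13 and 0.25 in cKO. Those nearest to *Eno3* were *Apobec2*, *Tpm1* and *Trdn* (0.132 to 0.197), of which *Tpm1* encodes a tropomyosin and *Trdn* triadin of the muscle calcium release complex. Those nearest to *Pfkm* were *Nrep*, *Islr2* and *Steap3* (0.0294 to 0.0333), and *Steap3* encodes a metalloreductase. The genes nearest to *Pfkl* were *Cidea*, *Aspg* and *Letmd1* (0.0532 to 0.0879), and *Cidea*, a lipid droplet protein abundant in brown fat, was at 342 and 416 FPKM in Ctrl and at 1001 and 839 in cKO. Those nearest to *Pgam1* were *Letm1*, *Ndufa10* and *Dlst* (0.0229 to 0.0434), which encode mitochondrial proteins. *Gpi1* was nearest to *Eno1* (0.0172), ahead of *Adcy3* and *Thbs1*. *Taldo1*, the transaldolase of the pentose phosphate pathway, was nearest to *Pfkp* (0.0166), *Entpd4* to *Hk2* (0.0176), *Atp5a1*, a subunit of ATP synthase, to *Hk1* (0.0303) and *Foxs1* to *Hk3* (0.0575).

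Isoform levels depend on whether reads of related genes can be told apart. Between members of a family, coding sequences aligned with 59.3% identity (*Hk1* and *Hk3*) to 76.7% (*Eno1* and *Eno3*), and *Pgam1* and *Pgam2* had 74.4%. No stretch of 50 bases, the read length, was shared between any 2 of the 10 genes. *Pgam2*, *Eno3*, *Pfkm*, *Pfkp* and the 3 hexokinase genes shared none with any other gene either, and *Pfkl* shared 0.0543% of its stretches. *Eno1* shared 72.2% of its 50-base stretches with other genes, chiefly *Eno1b* (70.5%), and *Pgam1* shared 41.5% with a processed copy, *Pgam1-ps2*, so the values of *Eno1* and *Pgam1* are uncertain to the extent that reads were assigned to the copies. *Eno1b* was listed at 1.22 and 0.97 FPKM in Ctrl and at 2.63 and 1.07 in cKO. With *Eno1b* counted in the enolase family, an alternative chosen after seeing the data, the share of *Eno3* differed between cKO and Ctrl by -5.28 percentage points, against -5.29 without it.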

How the data were processed

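Poly(A) RNA of ingWAT from 2 Ctrl and 2 cKO libraries was read as single ends of 50 bases. The authors deposited FPKM per gene, to 2 decimals, and the submitters' processing notes name HISAT2 2.0.4, RSEM 1.2.12 and mm10. Scaling between libraries is not given in the sources used here. FPKM holds no counts, so depth was estimated from the FPKM steps of short RNAs (84.7% to 90.8% of the values used were whole reads within 0.1), and no count test was run. Over genes whose FPKM averaged 1 or more, the genotypes were compared two-sided by limma (version 3.58.1, R 4.3.3, with a variance trend) after a pseudocount of 1 and log2, with Benjamini-Hochberg adjustment over 12658 genes, at an adjusted p under 0.05. The fit and the depth estimate were tried on simulated data with independent noise, which cannot show whether the p-values hold for these libraries. Nothing says that libraries are separate animals, so p-values measure the spread between these libraries, which may be technical. The genes, lists and tests were chosen with earlier results of these data known. Named are the 10 isoform genes, other glycolysis genes, 6 muscle-enriched enzymes, 3 nearest genes by profile and the targeted gene, by a fixed rule. *Myh4*, *Myl1*, *Myod1*, *Csf1r*, *Tnnc1* and *Acta1* from the marker lists were named after their values were seen. The marker lists cover muscle, brown or beige adipocytes, myeloid cells and other cell types of the depot. Genome positions and promoter windows are from RefSeq GRCm38.p6, and transcript identities from the reference annotation for that build. Protein sequences were not analysed here, and 1 glycolysis gene is not reported here. Python 3.11.15 was used for the other steps. Alternatives were another pseudocount, filter or scaling, a replicate block, a fold threshold, no variance trend, a wider enolase family and each library left out.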

Additional observations from a re-analysis of the deposited data

How the results depend on the processing

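The 10 isoform genes had 99 alternative log2 fold changes, of which 0 changed sign and 2 moved by more than the spread between libraries, *Pgam1* to 0.55 with quantile normalization and *Pgam2* to -4.42 with a pseudocount of 0.1. The log2 ratio of *Hk2* to *Hk1* differed between genotypes by -0.02, which became 0.0112 with a pseudocount of 1 on both genes and -0.0053 with quantile normalization. The difference in the share of *Hk2* was 0.349 percentage points, -0.401 without Ctrl 1 and 1.10 without Ctrl 2, and a wider hexokinase family was not run. Over all genes, 3269 were called (1519 higher and 1750 lower in cKO), 1762 with no filter (667 and 1095) and 233 with an absolute log2 fold change of at least 1 (81 and 152), where the other glycolysis genes had 2 higher and 0 lower and the myeloid markers 2 higher. With 1 library left out, 787 to 2340 genes were called, 303 to 1072 higher and 484 to 1379 lower, the fewest without Ctrl 1, with 1478 without Ctrl 2 and 2152 without cKO 1. Without cKO 2, 961 were called higher. The other glycolysis genes then had 4 to 8 higher and 1 to 2 lower. *Bpgm* lost its call under 9 of 11 alternatives. The replicate numbers did not pair the libraries (correlation of their deviations 0.0148 over genes), and a replicate block gave 3383 calls. With 2 libraries per genotype the spread is poorly known, and the cKO level of *Pgam2* is limited by its low read number.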

Other observations

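The other cell type lists give the setting of these isoforms. Over all 12658 genes tested, 12% were higher in cKO and 13.8% lower. Of 8 general adipocyte markers, 4 were lower in cKO and 0 higher (limma, adjusted p under 0.05), with sums of 32078 and 30625 FPKM in Ctrl and 24307 and 24425 in cKO. Of 6 B and T cell markers 5 were higher, of 4 endothelial markers 2 were lower, and of 5 erythroid markers 2 were lower. Of the hepatocyte markers, 2 were tested and 1 was lower, and the 1 keratinocyte marker tested was not called. The 4 muscle stem cell markers were under the level tested, with *Myod1* at 0.45 and 0.27 FPKM in Ctrl and listed at 0 in both cKO libraries.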
